A study of Mus musculus with 8 samples.

Results

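The insulin-like growth factor (IGF) axis was followed through 10 genes of the deposited table of 54532 genes: the ligands Igf1 and Igf2, the receptor Igf1r, the binding proteins Igfbp2, Igfbp3, Igfbp4, Igfbp5 and Igfbp7, and the pappalysins Pappa and Pappa2. The genes were taken by symbol, and the axis was selected on the measured CPM of Pappa2, which was lower in MIA_Acu than in MIA, so that difference is described here with no test. All 10 members passed the filter on low counts that left 18971 genes for testing. RNA came from the L3-L5 dorsal root ganglia of C57BL/6 mice, where the sensory neurons of the hindlimb have their cell bodies, among glia, vessels, connective tissue and macrophages. Both groups had received monosodium iodoacetate into a joint, an agent that blocks glycolysis, kills cartilage cells and models osteoarthritis. The MIA group had no other treatment and the MIA_Acu group had manual acupuncture at the point ST36 on each of 7 days. Neither uninjured nor sham-treated animals enter these comparisons, and the distance of either group from the healthy state or from handling alone is therefore not known. Age and sex are not given in the labels, nor are the animals tied to the libraries, and p-values therefore reflect variation among libraries, which may be partly technical.

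Each group held 4 libraries of 32892804 to 40627041 counts. Of the 8 columns, 6 matched a sample title by group and number (1, 2 and 5 in each group). MIA 4 and MIA_Acu 3 matched no title, and the titles MIA_3 and MIA_Acu_4 had no column. Whether these columns were renumbered or exchanged between the groups is not known. They were used under the group in their name, so results are given for 8 libraries and for the 6. All 12 pan-neuronal markers were present in every library, with a summed level of 8613 to 13358 CPM (counts scaled to the library total). Tissue beyond the ganglion varied widely between libraries. Summed skeletal muscle markers ran from 35.7 to 5454 CPM and spinal cord markers from 39.2 to 355 CPM. Bone and cartilage markers stood at 630 CPM in MIA_Acu 3 and at 12.2 to 65.3 CPM in the other libraries.

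In this axis the ligands IGF1 and IGF2 bind the receptor tyrosine kinase IGF1R, which signals through insulin receptor substrates to the kinase AKT and through RAS to the MAP kinases. Binding proteins hold most of the extracellular ligand, which protects it and keeps it from the receptor. Pappalysins are secreted metalloproteases that cut binding proteins and so free the ligand: PAPP-A acts mainly on IGFBP4 and IGFBP5, and PAPP-A2 on IGFBP3 and IGFBP5. IGF1 promotes survival and neurite growth of sensory neurons in culture.

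The start regions of 3 members are printed because their transcripts had the largest log2 fold changes in 8 libraries: Pappa2, lower in MIA_Acu, and Igf1 and Igfbp7, higher. In the 6 libraries Igfbp5 (0.59) and Pappa (-0.53) lay beyond Igfbp7 (0.52). They cover 250 bases before to 50 bases after the RefSeq start (build GRCm38.p6), at chr1:158958126-158958425 (minus strand) for Pappa2, chr10:87860861-87861160 (plus strand) for Igf1 and chr5:77407996-77408295 (minus strand) for Igfbp7. Capitals mark matches, on either strand, to the motifs given after them.
Pappa2: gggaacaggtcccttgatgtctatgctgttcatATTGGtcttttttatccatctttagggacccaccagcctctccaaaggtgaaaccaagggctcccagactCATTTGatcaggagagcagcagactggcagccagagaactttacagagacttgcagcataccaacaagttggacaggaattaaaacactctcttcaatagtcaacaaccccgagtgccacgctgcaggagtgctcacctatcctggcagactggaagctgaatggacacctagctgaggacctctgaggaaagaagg
Igf1: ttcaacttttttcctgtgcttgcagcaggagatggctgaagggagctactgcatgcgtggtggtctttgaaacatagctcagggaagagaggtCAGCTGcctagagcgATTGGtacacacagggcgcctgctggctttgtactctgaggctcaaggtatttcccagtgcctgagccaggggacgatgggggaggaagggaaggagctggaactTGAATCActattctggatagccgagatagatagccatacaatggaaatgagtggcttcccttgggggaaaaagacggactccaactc
Igfbp7: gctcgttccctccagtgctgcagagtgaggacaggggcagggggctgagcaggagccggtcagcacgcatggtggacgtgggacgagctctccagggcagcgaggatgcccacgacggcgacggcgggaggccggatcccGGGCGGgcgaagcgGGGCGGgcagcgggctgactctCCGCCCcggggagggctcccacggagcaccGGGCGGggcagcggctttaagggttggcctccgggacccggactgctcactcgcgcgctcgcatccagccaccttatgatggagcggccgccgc

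Of the 10 members, 9 had an entry in the set of start regions used here (all but Pappa), with 13 start sites. Motifs searched on both strands were the TATA box (TATAAA, in 13.6% of all 32851 start regions), the CCAAT box (CCAAT, 37.4%), the GC box (GGGCGG, 35.7%), the E-box (CANNTG, 72.3%), AP-1 (TGANTCA, 7.81%), CRE (TGACGTCA, 1.79%), STAT (TTCNNNGAA, 8.3%) and a forkhead motif (TGTTTAC, 3.65%). The Pappa2 region was poor in CpG, with 49.7% GC and 2 CpG dinucleotides against medians of 52.7% and 7 over all regions, and held 1 CCAAT box and 1 E-box. That of Igf1 was close to it in base composition (52.3% GC, 6 CpG) and held 1 CCAAT box, 1 E-box and 1 AP-1 match. The Igfbp7 region had 73.3% GC, 33 CpG and 4 GC boxes. GC-rich starts were shared by Igf1r (76% GC, 48 CpG), Igfbp3 (71.7%, 37 CpG) and Igfbp4 (71.3%, 27 CpG), and Igfbp4 alone of the 13 regions held a TATA box. No CRE, STAT or forkhead match lay in these windows.

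Per kilobase of the longest annotated transcript, 3 binding proteins were the most abundant transcripts of the axis. Igfbp7 was at 40 ± 11 CPM, Igfbp5 at 35.2 ± 10.4 CPM and Igfbp4 at 25.4 ± 4.86 CPM (SD, n = 8 libraries). Igfbp7 lay above Igfbp5 in 6 of 8 libraries and Igfbp5 above Igfbp4 in 7, so these neighbours are not separated beyond their spread. A gap followed: Igfbp4 exceeded Igf1r (7.69 ± 0.532 CPM per kilobase) in 8 of 8 libraries. Igf1r was in turn above Igfbp3 (6.36 ± 1.18) in 6 of 8, and Igfbp3 above Igfbp2 (4.65 ± 0.563) in 7. Igfbp2 exceeded Igf1 (2.55 ± 0.854 CPM per kilobase) in 8 of 8 libraries. The pappalysins came next, Pappa at 1.4 ± 0.308 and Pappa2 at 1.28 ± 0.49. Pappa exceeded Pappa2 in 3 of 8 libraries, all of MIA_Acu, and Pappa2 was the higher in the 4 MIA libraries. Igf2 was last at 0.183 ± 0.0974 CPM per kilobase. The order depends on the length used: with the median transcript length, which short fragments pull down, Igfbp4 led at 127 CPM per kilobase, Igf1r was second at 43.9, above Igfbp7 (41.4) and Igfbp5 (41.1), Pappa2 was at 18.5 and Igf1 at 13.1, while Igf2 stayed last.

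**Figure D1:**
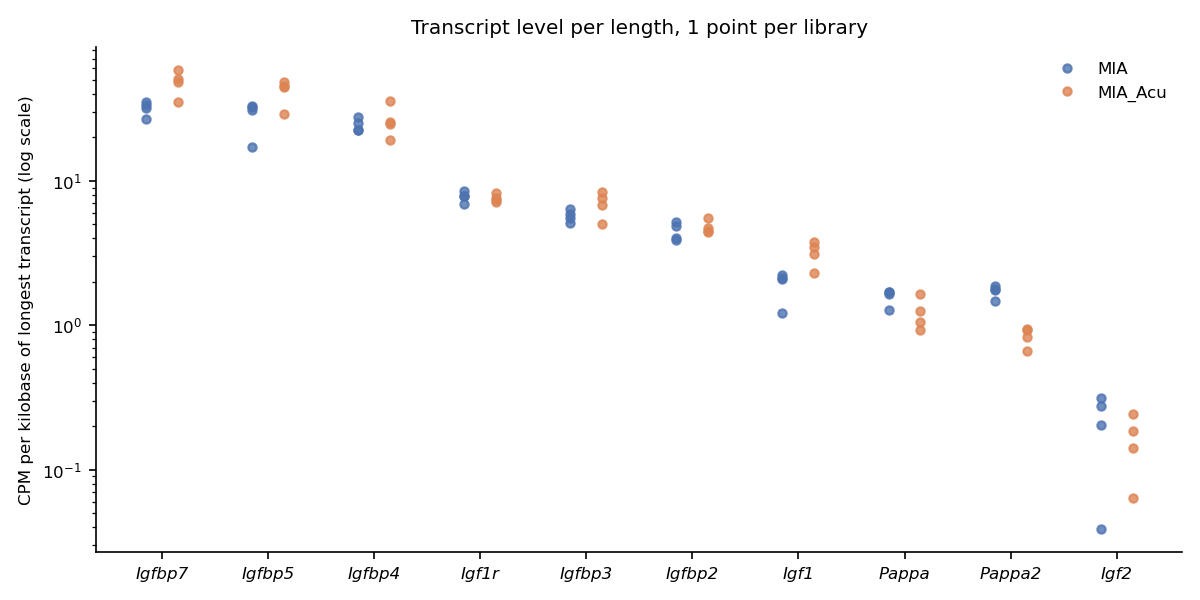
Level of each member in CPM per kilobase of its longest transcript (log scale), 1 point per library, blue for MIA and orange for MIA_Acu, ordered by the mean of 8 libraries. Igfbp7, Igfbp5 and Igfbp4 stand at the top (means 40, 35.2 and 25.4) and Igf2 at the bottom (0.183).

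Pappa2, the protease of IGFBP3 and IGFBP5, stood apart from the other members. In the MIA libraries numbered 1, 2, 4 and 5 it was at 14.1, 16.6, 17.1 and 17.8 CPM, and in the MIA_Acu libraries numbered 1, 2, 3 and 5 at 6.33, 8.95, 8.87 and 7.97 CPM. Every MIA_Acu library lay below every MIA library, with a gap wider than the range within either group. The fold was 0.49, a log2 fold change of -1.03 (SE 0.13) in 8 libraries and -1.07 (SE 0.16) in the 6. Of all 18971 genes, 5.91% were lower in MIA_Acu with groups that do not overlap and 0.58% were lower by at least 1 on the log2 scale. These values are the reason the gene was picked and serve here as a description.

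Pappa, the protease of IGFBP4, was at 14, 18.6, 18.2 and 18.7 CPM in MIA and at 13.8, 10.3, 18.1 and 11.6 CPM in MIA_Acu. The groups overlap: MIA 1 was the low library of its group, and MIA_Acu 3 was as high as the other MIA libraries. The log2 fold change was -0.37 (SE 0.18, edgeR adjusted p = 0.251) in 8 libraries and -0.53 (SE 0.16, adjusted p = 0.0661) in the 6, neither past the threshold of 0.05. Relative to Pappa, Pappa2 per kilobase of the longest transcript was at 103% to 116% in MIA and at 53.1% to 100% in MIA_Acu. By that length the pair was at like levels in MIA, and Pappa2 was the lower or equal of them in MIA_Acu. With the median transcript length the 2 were far apart, Pappa2 at 18.5 and Pappa at 1.4 CPM per kilobase over 8 libraries. Their relative level thus depends on the length used. Whether the change of Pappa2 differs from that of Pappa was not tested.

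**Figure D2:**
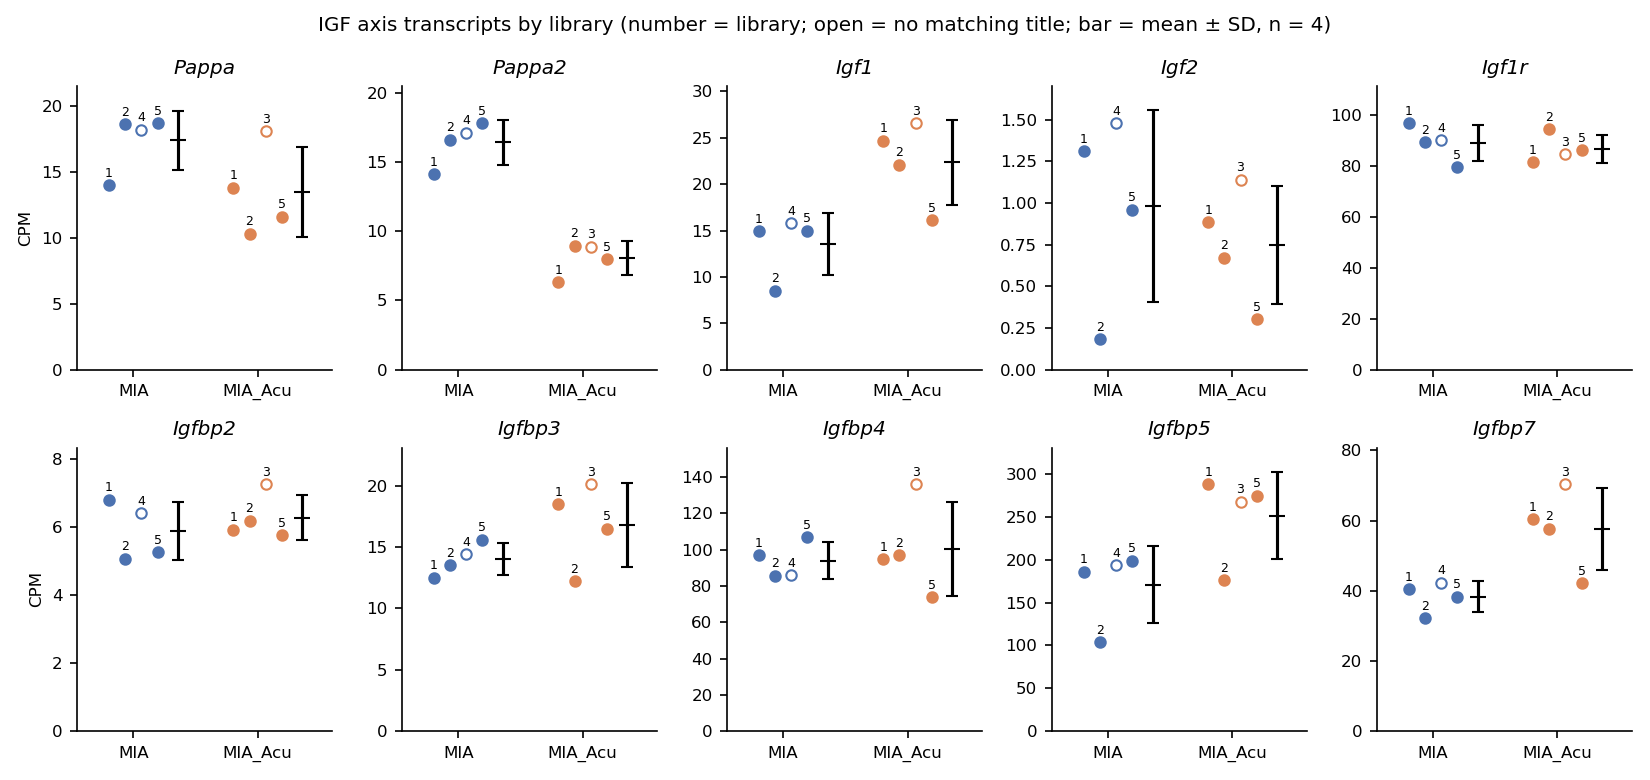
CPM of the 10 members in each library, blue for MIA and orange for MIA_Acu, with library numbers beside the points, open points for the columns that match no title, and the mean ± SD (n = 4) as bars. Pappa2 (14.1 to 17.8 against 6.33 to 8.95 CPM) and Igf1 (8.51 to 15.8 against 16.1 to 26.6 CPM) are the members whose groups do not overlap.

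Of the 9 members other than Pappa2, 6 were higher and 3 lower in MIA_Acu. Their median log2 fold change was 0.10, against 0.02 over all genes tested. None passed the threshold in edgeR's quasi-likelihood test of 8 libraries (0 of 9, lowest adjusted p = 0.0982), where 0% of all genes did. At an unadjusted p under 0.05 there were 3 of 9 (Igf1, Igfbp5 and Igfbp7), against 21.8% of all genes, and limma voom called 0 of the 9. DESeq2, which called 1753 genes in the same libraries, called 2 of them, Igf1 and Igfbp7. In the 6 libraries edgeR again called 0 of 9 (lowest adjusted p = 0.0538, 3 with an unadjusted p under 0.05), where 10.4% of all genes passed and 27.8% had an unadjusted p under 0.05.

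Igf1, the main ligand, was at 14.9, 8.51, 15.8 and 15 CPM in the MIA libraries and at 24.7, 22.1, 26.6 and 16.1 CPM in the MIA_Acu libraries. Groups did not overlap, although MIA_Acu 5 lay just above MIA 4. Among all genes 4.95% were higher with groups that do not overlap. The log2 fold change was 0.73 (SE 0.21, edgeR adjusted p = 0.12) in 8 libraries and 0.71 (SE 0.24, adjusted p = 0.0943) in the 6, so the difference did not pass. Igf1os, an antisense gene at its start, had at most 6 counts in any library against 326 to 979 for Igf1.

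Igf2, the second ligand, had the fewest counts of the axis, with 7 to 56 counts in MIA and 11 to 42 in MIA_Acu. Its levels were 0.183 to 1.48 CPM and 0.301 to 1.14 CPM, which overlap almost wholly. The log2 fold change of -0.38 (SE 0.58, edgeR adjusted p = 0.741) leaves a range of 2 SE from -1.55 to 0.78, and the coefficient of variation was 58.6% in MIA and 47.5% in MIA_Acu. In GRCm38 the protein-coding gene Gm49394 lies on the same strand over nearly all of Igf2 and had 0 counts in every library. Whether reads shared by both were assigned to Igf2 or dropped is not known, so the level of Igf2 may be understated. The antisense gene Igf2os had up to 11 counts, and without a stated strand setting its reads cannot be told apart from those of Igf2.

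Igf1r, the receptor of both ligands, was the steadiest member. It was at 96.8, 89.3, 90.1 and 79.4 CPM in MIA and at 81.3, 94.3, 84.5 and 86.2 CPM in MIA_Acu. The groups lie within each other, and the coefficient of variation was 8.09% in MIA and 6.4% in MIA_Acu. The log2 fold change was -0.04 (SE 0.08, edgeR adjusted p = 0.812), with 2 SE reaching from -0.19 to 0.11. Per kilobase of the longest transcript, Igf1 amounted to 15.4% to 30.5% of Igf1r in MIA and to 30.3% to 51% in MIA_Acu, overlapping through MIA_Acu 5.

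Igfbp5, a binding protein held in extracellular matrix and a substrate of both pappalysins, was at 186, 104, 194 and 199 CPM in MIA and at 288, 176, 268 and 275 CPM in MIA_Acu. The low library of each group was the one numbered 2, and MIA_Acu 2 fell among the MIA libraries. Its log2 fold change was 0.56 (SE 0.22, edgeR adjusted p = 0.183) in 8 libraries and 0.59 (SE 0.26, adjusted p = 0.184) in the 6. Igfbp7, a vascular matrix protein that binds IGFs only weakly, was at 40.5, 32.2, 42.3 and 38.3 CPM in MIA and at 60.5, 57.7, 70.3 and 42.2 CPM in MIA_Acu. Groups touched only through MIA_Acu 5, which equalled MIA 4. The log2 fold change of Igfbp7 was 0.59 (SE 0.15, edgeR adjusted p = 0.0982) in 8 libraries and 0.52 (SE 0.14, adjusted p = 0.0538) in the 6. The end of Igfbp7 overlaps Polr2b on the opposite strand, a gene with 2075 to 3184 counts per library, and reads of the overlap may have been assigned to either.

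The remaining binding proteins differed by less than their spread. Igfbp3, the main carrier in blood and a substrate of PAPP-A2, ranged from 12.5 to 15.6 CPM in the MIA libraries and from 12.2 to 20.1 CPM in the MIA_Acu libraries (log2 fold change 0.27, SE 0.15, edgeR adjusted p = 0.322). Igfbp2, abundant in the developing nervous system, was at 5.06 to 6.79 and 5.75 to 7.24 CPM (log2 fold change 0.09, SE 0.15, adjusted p = 0.752). Igfbp4, an inhibitor of IGF action until PAPP-A cuts it, was at 85.7 to 107 CPM in MIA and at 94.8, 97.1, 136 and 73.8 CPM in MIA_Acu. Its sign rested on MIA_Acu 3: the log2 fold change was 0.10 (SE 0.16) in 8 libraries, -0.09 without MIA_Acu 3 and -0.13 (SE 0.12, adjusted p = 0.531) in the 6. Igfbp2 and Igfbp5 are encoded on opposite strands of chromosome 1 at 72824503 to 72852474 and 72857932 to 72874884 (GRCm38), with no shared bases.

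**Figure D3:**
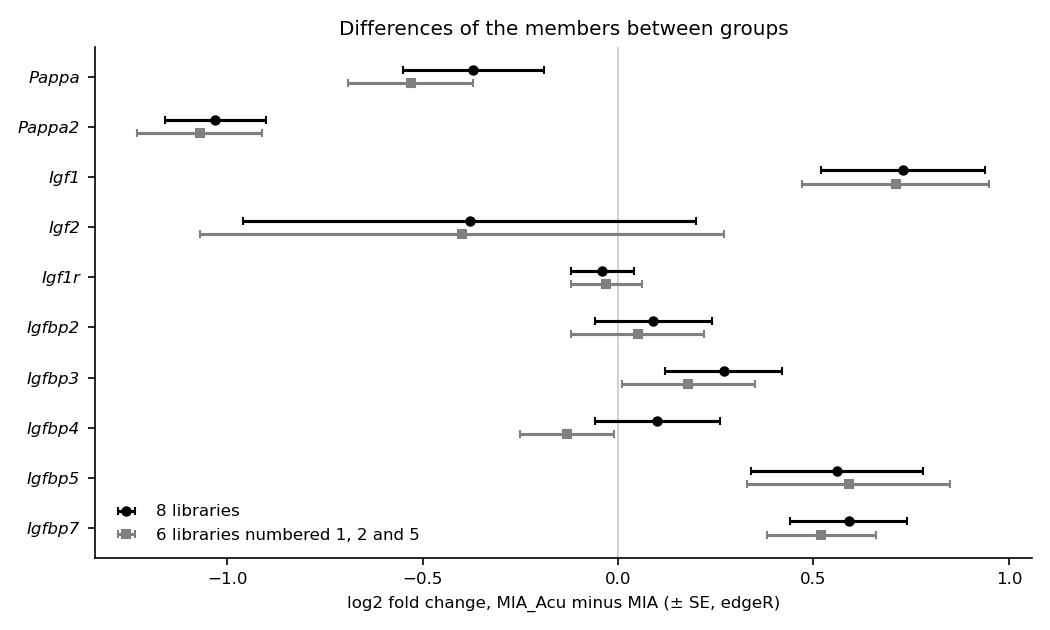
Log2 fold change of each member, MIA_Acu minus MIA, with its SE from edgeR, in 8 libraries (black circles) and in the 6 libraries numbered 1, 2 and 5 (grey squares). Pappa2 lies at -1.03 and -1.07, Igf1, Igfbp5 and Igfbp7 lie between 0.52 and 0.73 in both fits, and Igfbp4 changes sign.

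Pappa2 was also set against the transcripts of its substrates, neither of which passed the test. Per kilobase of the longest transcript, Pappa2 amounted to 4.76%, 10.1%, 5.58% and 5.65% of Igfbp5 in the MIA libraries. In the MIA_Acu libraries the share was 1.39%, 3.21%, 2.09% and 1.83%. The size of these shares depends on the length used. Set against Igfbp3, the share was 28.7% to 31.4% in MIA and 8.71% to 18.6% in MIA_Acu. For Pappa against Igfbp4 the shares overlapped, at 5.03% to 7.55% and 3.69% to 5.44%. These ratios contain the Pappa2 values that led to its choice and carry no test, and transcript levels say nothing of enzyme activity.

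Cell type markers differed between the groups beside these genes. In bulk tissue, fewer cells of a type and less RNA per cell cannot be told apart. All 12 pan-neuronal markers were lower in MIA_Acu (median log2 fold change -0.34), with summed levels of 10037 to 13358 CPM in MIA and 8613 to 10542 CPM in MIA_Acu. Summed markers of large-diameter afferents were at 3685 to 4205 and 3051 to 3594 CPM (6 of 8 lower), and those of nociceptors at 2190 to 2894 and 1821 to 2529 CPM (8 of 8 lower). The large-diameter markers that were higher, named after their values were seen, were Pvalb and Spp1. Pvalb was lowest in MIA 2 and MIA_Acu 2 (58.2 and 78 CPM), as were summed skeletal muscle markers (35.7 and 382 CPM). The part of other tissue in the large-diameter sum was not tested. Pappa2 was at 0.122% to 0.171% of the pan-neuronal sum in MIA and at 0.0601% to 0.0998% in MIA_Acu. The ratio of means was 0.622, where the fold in CPM was 0.49 and the pan-neuronal sum itself had a ratio of 0.79. Against the large-diameter and nociceptor sums, also lower on average in MIA_Acu, the ratios were 0.573 and 0.609. Against the endothelial, mural, fibroblast and macrophage sums, higher on average in MIA_Acu, they were 0.343, 0.359, 0.184 and 0.336. These ratios too contain the values that led to the choice of Pappa2 and are a description. Pappa was at 0.121% to 0.181% and 0.112% to 0.203% of the pan-neuronal sum, a ratio of 0.976. Its ratio against the endothelial sum was 0.531.

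On the side of the vessels all 10 endothelial markers were higher in MIA_Acu (median log2 fold change 0.54), with sums of 238 to 291 CPM in MIA and 342 to 455 CPM in MIA_Acu. All 8 mural markers were higher too (331 to 419 and 418 to 583 CPM). Igfbp7 was at 13.5% to 14.5% of the endothelial sum in MIA and 12.3% to 16% in MIA_Acu, a ratio of means of 1.05. Macrophage markers (9 of 9 higher) summed to 58.9 to 98.7 and 84.8 to 150 CPM, and Igf1 was at 14.4% to 20.5% and 14.8% to 27% of that sum, a ratio of 1.18. Fibroblast markers (9 of 9 higher) summed to 641 to 2029 and 2404 to 5861 CPM. The highest sum was that of MIA_Acu 3, the library high in bone and cartilage markers, with the other MIA_Acu libraries at 2404 to 3162 CPM. Named after its values were seen, Col1a1 was at 2001 CPM in MIA_Acu 3 and at 333 to 452 CPM in those others. Col3a1 (420 CPM in MIA_Acu 3) lay among theirs (351 to 495 CPM). Igfbp5 was at 9.55% to 16.2% and 4.57% to 12% of the fibroblast sum, a ratio of 0.653. Against the same sum the ratios were 0.702 for Igf1 and 0.592 for Igfbp7. Against the endothelial sum Igfbp5 was at 43.5% to 74.4% and 48.2% to 80.3%, a ratio of 1.05. Against the pan-neuronal sum, lower on average in MIA_Acu, the ratios were 2.04 for Igf1, 1.82 for Igfbp5 and 1.87 for Igfbp7. No marker of these neuronal, vascular, fibroblast and macrophage lists was at 0 in any library. The part of cell makeup in the differences of Pappa2, Igf1, Igfbp5 and Igfbp7 was not tested.

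**Figure D4:**
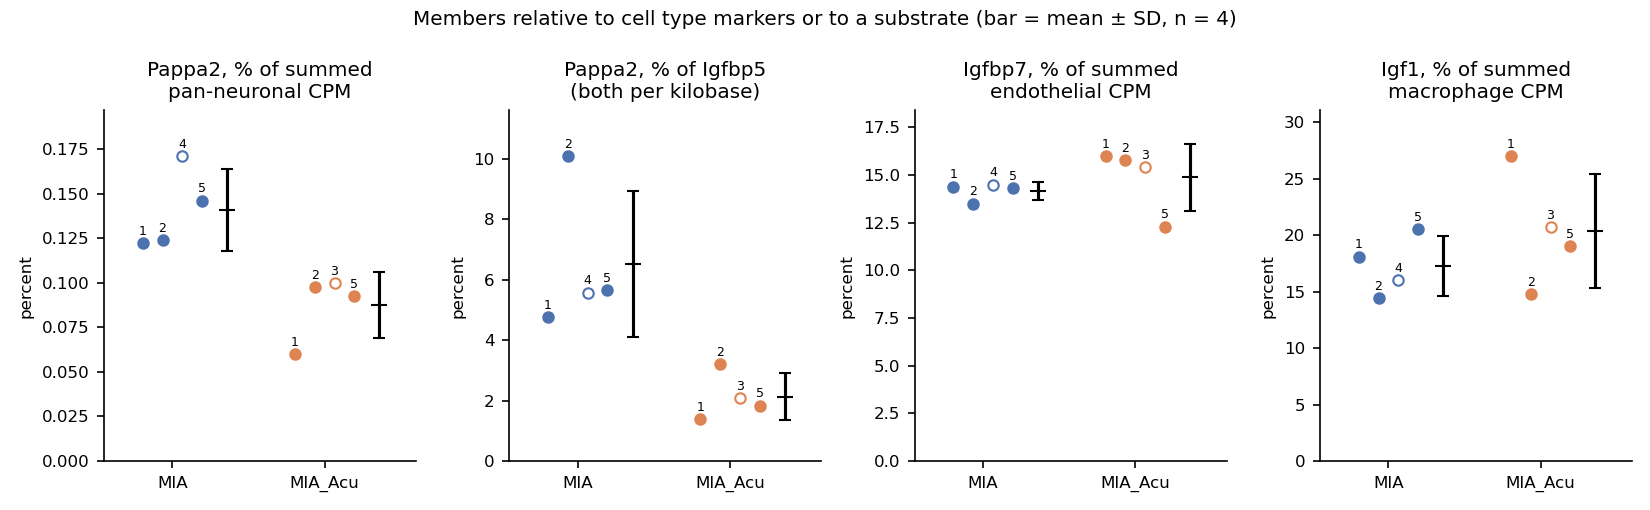
Members as a percent of summed marker CPM, or of Igfbp5 per kilobase, in each library, with mean ± SD (n = 4) as bars and library numbers beside the points. Pappa2 lies at 0.122% to 0.171% of the pan-neuronal sum in MIA and at 0.0601% to 0.0998% in MIA_Acu, values that contain those the axis was selected on, and Igfbp7 relative to endothelial markers overlaps (13.5% to 14.5% against 12.3% to 16%).

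Likeness of pattern was measured as the root mean square difference of log2 CPM over the 8 libraries, each gene centred on its mean. Nearest to Pappa2 were Ryr2 (0.236), the calcium release channel, Defb42 (0.237), Ntrk3 (0.239), the neurotrophin-3 receptor, Ccdc172 (0.251), Oprd1 (0.267), the delta opioid receptor, and Fbxl8 (0.269). Their log2 fold changes were -0.61 to -0.71. These neighbours were ranked on the values that led to the choice of Pappa2 and are a description. Igf1 was nearest to Sox18 (0.144), a transcription factor of vascular endothelium, Kctd12 (0.145) and Tfpi (0.146), an inhibitor of coagulation made by endothelium. Kctd12 (0.081), Tm4sf1 (0.099) and Cd93 (0.100), an endothelial receptor, were nearest to Igfbp7. Cnih3 (0.155), Msrb3 (0.163) and Nfatc1 (0.171) were nearest to Igfbp5, and Rgs14 (0.091), Arg2 (0.112) and Pbld2 (0.117) to Pappa. Igf1r lay within 0.044 to 0.049 of Ulk3, Mical1 and Tfcp2. For Igf2 the nearest genes were farther off, Fbln1 (0.443), a fibroblast matrix gene, Itgbl1 (0.466) and Foxc2 (0.509). Igfbp2 was closest to Tgfbr1 (0.056), Htatsf1 (0.078) and Chic2 (0.078), Igfbp3 to Pcdh18 (0.091), Cybrd1 (0.117) and Rnf144b (0.119), and Igfbp4 to Helb (0.093), Dtx3l (0.095) and Tnfrsf1a (0.095).

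The wider pathway was read from 4 lists of 72 genes, of which 66 could be tested in 8 libraries and 65 in the 6. In 8 libraries edgeR called 0 of 66, as it did of all genes, and limma voom called 0. At an unadjusted p under 0.05 in edgeR there were 21 of 66, against 21.8% of all genes. DESeq2 called 13 of 66, and 1753 of all 18971 genes. In the 6 libraries 12 rose and 1 fell, where 6.22% of all genes rose and 4.14% fell. The genes named next as risen or fallen are so in those 6 libraries.

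Among other genes of the axis (15 of 19 tested, median log2 fold change 0.24), Igf2bp2 rose. It encodes an RNA-binding protein of Igf2 mRNA and was at 6.21, 3.86, 9.95 and 6.74 CPM in MIA and 9.9, 13.6, 8.11 and 14.4 CPM in MIA_Acu. Its log2 fold change was 0.78 (SE 0.28, edgeR adjusted p = 0.162) in 8 libraries and 1.17 (SE 0.24, adjusted p = 0.0238) in the 6, since MIA 4 was the high library of its group and MIA_Acu 3 the low one. The genes that follow were named for their role after their values were seen, and those tested did not pass in edgeR with 8 or 6 libraries. Igf2r, which takes up and clears IGF2, was at 42.3 ± 2.2 and 42.2 ± 11.5 CPM, and the insulin receptor gene Insr at 64.1 ± 4.81 and 66.5 ± 3.78 CPM (SD, n = 4). Insrr, the insulin receptor-related receptor, ranged from 4.8 to 5.14 CPM in the MIA libraries and from 2.6 to 3.86 CPM in the MIA_Acu libraries (log2 fold change -0.55, SE 0.16, edgeR adjusted p = 0.124), and DESeq2 called it in 8 libraries (adjusted p = 0.0275). Stanniocalcins, which inhibit the pappalysins, were barely expressed: Stc1 had 8 to 20 counts in MIA and 6 to 39 in MIA_Acu, and Stc2 had 4 to 14 and 6 to 41. For both genes MIA_Acu 3, the library high in bone and cartilage markers, held the highest count. Igfbp1, the binding protein of liver, had at most 2 counts in any library and was not tested, and Igfbp6 was at 25.8 ± 12.1 and 30.5 ± 2.25 CPM.

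The genes listed for proteins that share the IGFBP-type module were all higher in MIA_Acu in 8 libraries (9 of 9, median log2 fold change 0.65, 0 called). In the 6 libraries 7 of 9 were higher (median 0.21). The list is not complete: Htra1 and Htra3, relatives of the listed Htra4, were counted among the other genes of the axis. Named after their values were seen, they had log2 fold changes of -0.16 and 0.64 in 8 libraries. Risen in the 6 were Cyr61 and Wisp1, matricellular proteins of the CCN family that respond to mechanical load and WNT signals. Cyr61 was at 9.32, 4.54, 9.23 and 8.26 CPM in MIA and 17.3, 13.4, 20.1 and 16.6 CPM in MIA_Acu, with no overlap. Its log2 fold change was 1.10 (SE 0.22, edgeR adjusted p = 0.0881) in 8 libraries and 1.09 (SE 0.25, adjusted p = 0.0325) in the 6. Wisp1 was at 12.9, 8.11, 17.2 and 12.2 CPM and at 23.7, 23.2, 25.9 and 24.5 CPM, also apart, with 0.95 (SE 0.19, edgeR adjusted p = 0.0881) and 1.09 (SE 0.17, adjusted p = 0.0185). The summed fibroblast markers did not overlap between the groups either (641 to 2029 and 2404 to 5861 CPM), and their part in these differences was not tested.

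Of the growth hormone axis, which drives Igf1 in liver, 7 of 8 genes were tested. In 8 libraries 3 were higher and 4 lower (median log2 fold change -0.03, 0 called). Jak2, the kinase of the growth hormone receptor, and Stat5a, a transcription factor downstream of it beside Stat5b, rose in the 6 libraries. Jak2 averaged 43.3 ± 3.91 CPM in the MIA libraries and 54 ± 4.46 CPM in the MIA_Acu libraries, and Stat5a 8.59 ± 1.13 and 11.3 ± 0.803 CPM (SD, n = 4). Their log2 fold changes in the 6 were 0.36 (SE 0.10, edgeR adjusted p = 0.0486) and 0.50 (SE 0.12, adjusted p = 0.0387), against 0.32 and 0.40 in 8 libraries (adjusted p = 0.109 and 0.125). The receptor gene Ghr, named after its values were seen, was at 59.6 ± 5.27 and 58.4 ± 2.58 CPM. Stat5b, Socs2 and Cish, named in the same way, did not pass in edgeR with 8 or 6 libraries. Their log2 fold changes in 8 libraries were 0.09, -0.17 and -0.14.

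Downstream of the receptor, 35 of 36 signalling genes were tested, 13 higher and 22 lower in 8 libraries (median log2 fold change -0.04, 0 called). In the 6 libraries 7 rose, 1 fell and 27 did not pass. Irs1, an insulin receptor substrate, was at 10.2, 5.56, 19.2 and 11.4 CPM in MIA and 17.8, 17, 20.2 and 21.9 CPM in MIA_Acu. MIA 4 lay among the MIA_Acu libraries, and the log2 fold change was 0.73 (SE 0.30, edgeR adjusted p = 0.201) in 8 libraries and 1.05 (SE 0.25, adjusted p = 0.0351) in the 6. Foxo1 and Foxo4, transcription factors that AKT keeps out of the nucleus, rose by 0.68 and 0.85 on the log2 scale in the 6 (edgeR adjusted p = 0.0185 and 0.0274), and were at 0.48 and 0.61 in 8 libraries (adjusted p = 0.122 and 0.144). Akt2 ranged from 62.3 to 77 CPM in the MIA libraries and from 82.2 to 88.7 CPM in the MIA_Acu libraries, without overlap (log2 fold change 0.35 in the 6, SE 0.07, edgeR adjusted p = 0.0266, and 0.31 in 8 libraries, adjusted p = 0.0933). Sos1, which loads RAS with GTP, fell, from 158 to 169 CPM in the MIA libraries to 131 to 145 CPM in the MIA_Acu libraries (log2 fold change -0.27 in the 6, SE 0.07, edgeR adjusted p = 0.0471, and -0.22 in 8 libraries, adjusted p = 0.105). Summed myelinating Schwann markers, 10 of 10 higher, ran from 6707 to 23990 CPM in MIA, highest in MIA 4, and from 20200 to 38265 CPM in MIA_Acu, lowest in MIA_Acu 3. Foxo4 was likewise highest among MIA libraries in MIA 4 (62.4 CPM) and lowest among MIA_Acu libraries in MIA_Acu 3 (60.2 CPM). Their part in these differences was not tested.

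**Figure D5:**
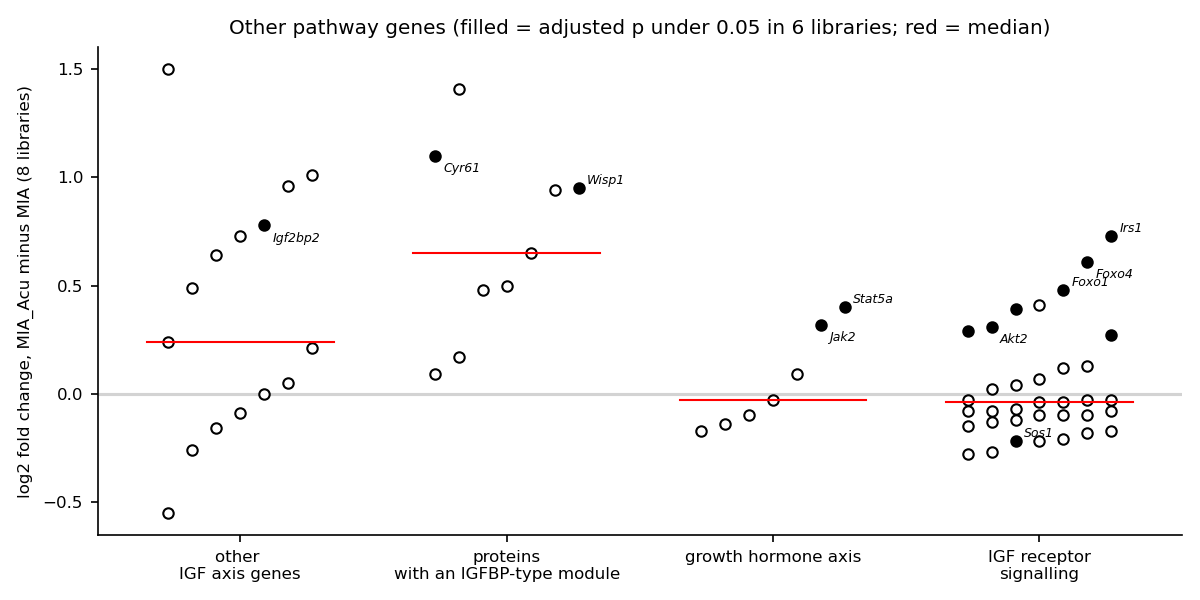
Log2 fold change in 8 libraries, MIA_Acu minus MIA, of each tested gene of the 4 pathway lists, filled where edgeR's adjusted p was under 0.05 in the 6 libraries, with the list median as a red line and the filled genes described in the text labelled. Of 13 filled genes, 12 lie above 0 and Sos1 lies below, and the medians are 0.24, 0.65, -0.03 and -0.04.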

How the data were processed

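Poly(A) RNA-seq libraries were made from TRIzol RNA with the NEBNext Ultra RNA kit, per the labels' protocols. FastQC, Trimmomatic and the build GRCm39 (mm39) are named per the submitters' processing notes. Of the aligner, counter, strand setting and annotation release nothing is given in the sources used here. The authors deposited whole-number, unnormalized counts by Ensembl identifier and symbol. Counts were tested with edgeR 4.0.16 (glmQLFit, glmQLFTest) in R 4.3.3 in a model of group alone, after filterByExpr (at least 10 counts, total of at least 15) and TMM scaling. P-values were Benjamini-Hochberg adjusted over all 18971 genes (threshold 0.05). The biological coefficient of variation was 22.9%. SEs came from the F statistic. CPM uses TMM-scaled totals, log2 CPM a prior count of 2. Lengths came from GENCODE M21 (GRCm38) and start regions from RefSeq. No pair of libraries within a group was alike within counting error (chi-square per degree of freedom of at least 19.69).

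The members and lists were chosen with earlier results of these data known. Named genes were all members, the pathway genes past the threshold in 8 or 6 libraries (up to 6 a list by smallest p), the 3 genes nearest in pattern to each member (6 for Pappa2, mean log2 CPM of at least 1), and others marked as such; 1 pathway gene that the rule names is counted but not reported here. List genes whose symbols the table gives in older form were matched by identifier. Alternatives were DESeq2 size factors, no filter, a stricter filter (10 counts in 4 libraries, mean log2 CPM of 1), DESeq2 1.42.0, limma 3.58.1 voom, each library left out, and the 6 libraries, fitted also with a replicate block. The fit was tested on simulated data.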

Additional observations from a re-analysis of the deposited data

Results flagged for a closer look

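Among the 20 sets of 4 libraries (10 members in 2 groups), 3 held a library far from the other values of its set, where chance gives about 1 in 20. In MIA, Pappa was at 14 CPM in MIA 1 against 18.2 to 18.7 CPM in the others. Igf1 was at 8.51 CPM in MIA 2 against 14.9 to 15.8 CPM, and Igfbp5 at 104 CPM in MIA 2 against 186 to 199 CPM. MIA 2 was also the lowest MIA library for Igf2 (0.183 CPM), Igfbp7 (32.2 CPM), and the summed markers of fibroblasts (641 CPM), myelinating Schwann cells (6707 CPM), macrophages (58.9 CPM) and skeletal muscle (35.7 CPM), and the highest for pan-neuronal markers (13358 CPM). The part of this makeup in the low values was not tested.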

How the results depend on the processing

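Over all genes, edgeR called 0 in 8 libraries (4137 at an unadjusted p under 0.05), 6 with no filter and 1963 in the 6 libraries numbered 1, 2 and 5. DESeq2 called 1753, and leaving out 1 library gave 0 to 1340, the highest without MIA 4. Of the 9 members other than Pappa2, 0 passed in 8 libraries and 0 with any 1 library left out, while DESeq2 called 2. Of the pathway genes 0 passed in 8 libraries, 0 to 10 with 1 library left out (10 without MIA 4), 13 in the 6 libraries and 13 in DESeq2. The labels state no pairing, and these few libraries cannot decide whether same-numbered ones pair. The correlations of their deviations were 0.0673, 0.272 and 0.152 for the numbers 1, 2 and 5. Those of unlike numbers were -0.249 to -0.0103, except that MIA 1 correlated best with MIA_Acu 5 (0.148). With the replicate number as a block the 6 libraries gave 1486 genes, 1 member (Igfbp5, log2 fold change 0.61, adjusted p = 0.0248) and 10 pathway genes, all higher: Sos1, Stat5a, Gab1 and Grb14 did not pass there and Nov did. Directions held under the 15 alternatives tried for 8 members (14 for Igf2, which the stricter filter removed), Pappa2 between -1.10 and -0.92 on the log2 scale. Igfbp4 turned to -0.13 in the 6 libraries and -0.14 with the block, and lay between -0.09 (without MIA_Acu 3) and 0.22 with 1 library left out. Igf1r ranged from -0.09 to 0.00 (without MIA 1). DESeq2 size factors, the stricter filter and limma voom left the counts of calls at 0; the cause of the other shifts was not tested. Counting error weighs most on Igf2, Stc1 and Stc2, with fewer than 60 counts in any library.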
